A study of Homo sapiens with 4 samples.

Results

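CDK8 was mapped by chromatin immunoprecipitation and sequencing (ChIP-seq) in the established human colorectal cancer line HCT116, and its peaks are described here across MYC and the surrounding 1200 kb of chromosome 8. The members are all peaks of the 3 deposited CDK8 peak lists that overlap positions 128000 to 129200 kb of chromosome 8 (build hg19). The rule uses positions and no measured value. The interval was read in 3 segments: upstream of MYC (128000 to 128728 kb), MYC (128728 to 128774 kb) and the PVT1 side (128774 to 129200 kb). The upstream segment includes 2 positions of known colorectal enhancers, near 128220 and 128413 kb. The interval held 40 of the 19862 peaks listed under normoxia, 49 of the 21993 of the library labelled hypoxia replicate 1 and 29 of the 14256 of hypoxia replicate 2. Merging peaks that touched or overlapped, whatever their list, gave 52 regions in the interval of 28150 in all.

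The normoxia group is 1 CDK8 library from HCT116 cells kept in normoxia for 24 h. The hypoxia group is 2 CDK8 libraries from HCT116 cells kept at 1% oxygen for 24 h. They are called hypoxia 1 and hypoxia 2 below, after their replicate numbers. All 3 used the same antibody lot. The labels leave unsaid if hypoxia 1 and hypoxia 2 were grown as separate cultures, and their spread may be technical. Hypoxia 1 stands apart from the others in its shortest listed peak, which measured 181 bp; the shortest measured 226 bp under normoxia and 225 bp for hypoxia 2. Each peak carries a score from the authors, of unstated scale, which is given below as its percentile within its own list, where 100 is the best peak. Percentiles rank peaks within a library and do not compare amounts of CDK8 between libraries. An input library completes the series and was not analysed here. All samples are 1 cell line, so no value speaks for other colorectal cells.

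CDK8 is the kinase of the Mediator kinase module, which it forms with cyclin C, MED12 and MED13, and Mediator passes signals from transcription factors to RNA polymerase II. CDK8 is known as a coactivator of beta-catenin in colorectal cancer cells. MYC encodes a transcription factor that drives growth and division and is a classical target of Wnt and beta-catenin signalling in the intestine. It sits in a wide stretch with few protein-coding genes, where distant enhancers bound by TCF factors are known to act on it in colorectal cells. PVT1, a long noncoding RNA gene, lies on the other side of MYC.

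Of 22 gene names listed for the surroundings, 20 were found in a RefSeq table of another build (GRCh38.p14), which was used for gene order alone. Going up the chromosome towards MYC, the order was TRIB1, LRATD2, PCAT1, PRNCR1, CASC19, CCAT1, CASC21, CASC8, CCAT2, POU5F1B and CASC11. After MYC came PVT1 and then MIR1204, MIR1205, MIR1206, MIR1207 and MIR1208, followed farther on by GSDMC and ASAP1. CCAT1 and CCAT2 are long noncoding RNA genes known for their expression in colorectal cancer. Peaks were not assigned to exons, introns or start sites, since no hg19 annotation was used.

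The whole interval was rich in CDK8 peaks in each of the 3 libraries. It held 33.3 peaks per Mb in normoxia, 40.8 in hypoxia 1 and 24.2 in hypoxia 2. The rest of chromosome 8 held 6.18, 6.75 and 4.24 peaks per Mb in the same order, so the interval was 5.40, 6.05 and 5.70 times as dense. Over the full lists the 3 ratios lie close together, and normoxia did not stand apart from the hypoxia libraries. This depended on the peaks kept. With the better-scoring 50% of each list the ratios were 5.45, 8.04 and 6.79, with normoxia below both hypoxia libraries. With equal list sizes they were 5.85, 6.84 and 5.70, with normoxia between them. When all chromosomes were tiled into 2564 windows of 1200 kb, 2.26% of windows held at least as many normoxia peaks, 1.87% at least as many peaks of hypoxia 1, and 2.22% at least as many of hypoxia 2. These windows include stretches without any peak.

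Peaks were sparse on both sides of the interval. The adjoining 1200 kb below it held 4, 4 and 2 peaks in normoxia, hypoxia 1 and hypoxia 2. The adjoining 1200 kb above it held 2, 6 and 2. Per Mb, these flanks ran from 1.67 to 5.00 peaks, under the rest of chromosome 8 in every library.

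**Figure D1:**
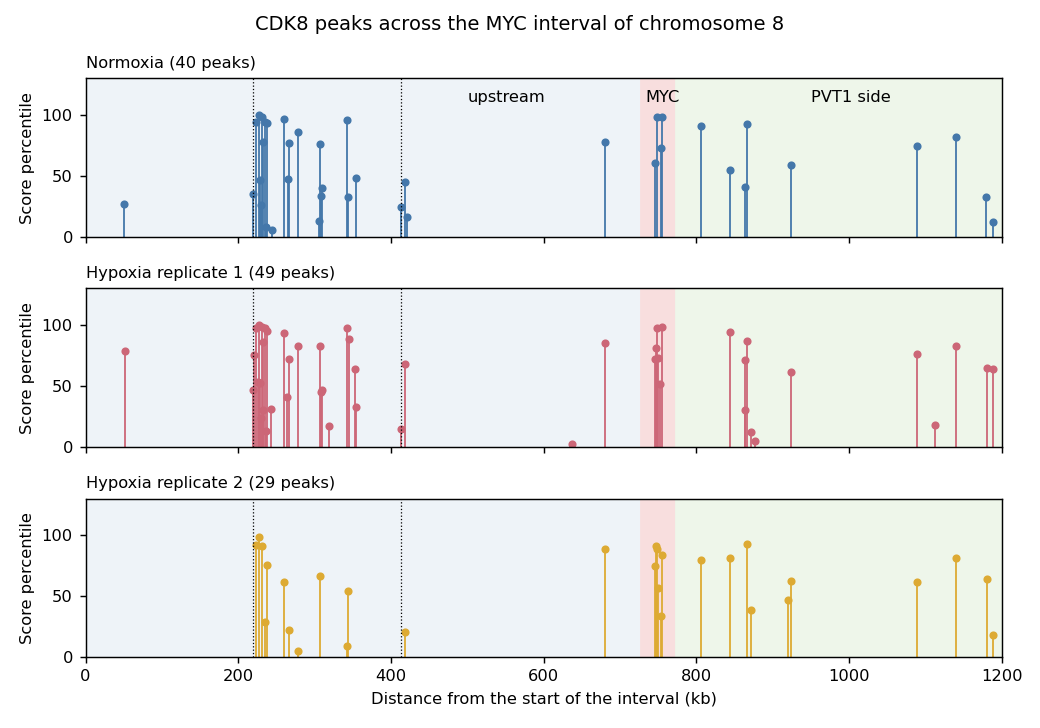
Each stem is 1 CDK8 peak, placed by its distance in kb from the start of the interval, and its height is the percentile of its score within its own list (100 is the best peak). Dotted lines mark the 2 colorectal enhancer positions. Peaks crowd just above the enhancer position on the left and at MYC in all 3 libraries, with a wide empty stretch between them.

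**Figure D2:**
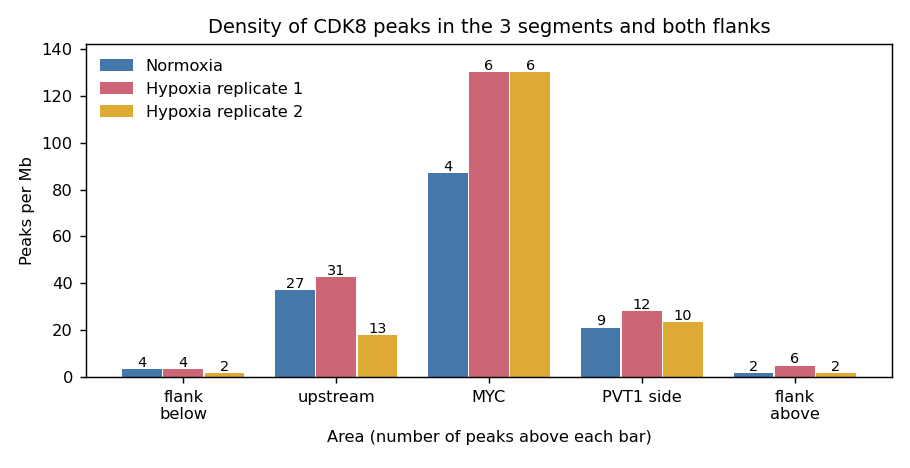
Bars give CDK8 peaks per Mb for the 3 segments and for the 1200 kb on either side, with the number of peaks above each bar. The MYC segment reached 87.0 to 130 peaks per Mb, and hypoxia 2 had fewer upstream peaks (13) than the other libraries (27 and 31).

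The MYC segment was the most crowded of the 3 per Mb, with 4 peaks in normoxia and 6 in each hypoxia library. These came to 87.0 peaks per Mb in normoxia and 130 in each hypoxia library. The larger count under hypoxia did not come with more covered sequence in both libraries. Peaks covered 5.95 kb of the segment in normoxia, 6.34 kb in hypoxia 1 and 4.77 kb in hypoxia 2, so normoxia lay between the hypoxia libraries. Among 67174 windows of 46 kb along all chromosomes, 0.131% had as much covered sequence in normoxia, 0.121% in hypoxia 1 and 0.0953% in hypoxia 2.

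All peaks of the MYC segment lay within 9.44 kb (128746233 to 128755675) and formed 4 joined regions. The widest was 4121 bp (128746927 to 128751047). Normoxia listed it as 1 unbroken peak of 4113 bp, and only 11 of 19862 normoxia peaks, this one included, were as wide. Hypoxia 1 listed the same stretch as 3 peaks that together covered 3775 bp, and hypoxia 2 as 3 peaks that covered 3303 bp. The percentile of the best of its peaks was 98.0 in normoxia, 97.7 in hypoxia 1 and 91.2 in hypoxia 2. Why the stretch was listed whole in normoxia and in pieces in the hypoxia libraries was not tested. The number of pieces is no measure of the amount of CDK8.

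The next region ran over 1941 bp (128753735 to 128755675) and was broken the other way. Hypoxia 1 listed it as 1 peak of 1893 bp, while normoxia and hypoxia 2 listed 2 peaks each, covering 1568 bp and 1216 bp. Its best percentile was 98.0 in normoxia, 98.6 in hypoxia 1 and 83.9 in hypoxia 2. The pattern of breaks therefore did not separate hypoxia from normoxia over the 2 broad regions.

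A narrow region of 460 bp (128746233 to 128746692) just below the broad one was a single peak in each library. It reached percentile 60.9 in normoxia, 72.4 in hypoxia 1 and 74.6 in hypoxia 2. The hypoxia values lay above normoxia, with 1 normoxia library and no error on it. The last region, 229 bp (128752741 to 128752969), was in hypoxia 1 alone, at percentile 51.8.

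**Figure D3:**
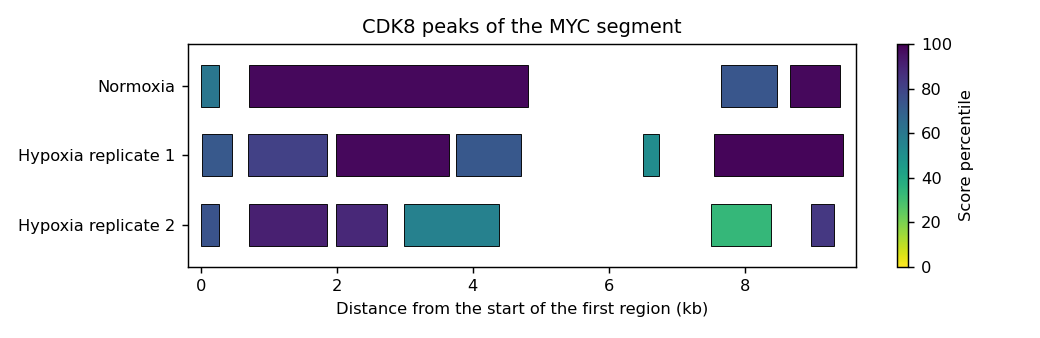
Boxes are the CDK8 peaks of the MYC segment in each library, drawn to scale in kb from the start of the lowest region and coloured by score percentile. The 4113 bp normoxia peak faces 3 peaks in each hypoxia library, and the right-hand region is a single box in hypoxia 1 alone.

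Bases covered at MYC were shared widely among the libraries. The Jaccard index, shared bases over bases covered by either library, was 0.705 for the 2 hypoxia libraries, 0.834 for normoxia and hypoxia 1 and 0.758 for normoxia and hypoxia 2. Over the whole lists the same indices were 0.360, 0.444 and 0.441. Of the bases of hypoxia 2 at MYC, 96.8% were also covered in normoxia. Median peak widths at MYC were 784, 1058 and 820 bp in normoxia, hypoxia 1 and hypoxia 2, against 379, 295 and 352 bp over the whole lists; the part of peak width in these indices was not tested.

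The upstream segment held more peaks than either other segment in each library, with 27 in normoxia, 31 in hypoxia 1 and 13 in hypoxia 2. These covered 14.2, 14.6 and 5.81 kb. The hypoxia libraries differed from each other by more than normoxia differed from hypoxia 1. Hypoxia 2 had 0.481 times the normoxia count here, against 0.718 times over the whole lists and 1.11 times on the PVT1 side. The upstream share of each list was 0.136% (95% Wilson interval 0.0934 to 0.198) in normoxia, 0.141% (0.0993 to 0.200) in hypoxia 1 and 0.0912% (0.0533 to 0.156) in hypoxia 2. The intervals overlap and cover counting error alone.

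A single tight cluster made up much of the upstream segment. Regions at most 10 kb apart were chained, and 15 regions formed 1 chain of 25.0 kb (128219213 to 128244176), which begins beside the enhancer position at 128220 kb. It held 11 peaks in normoxia, 14 in hypoxia 1 and 5 in hypoxia 2, covering 6.49, 7.10 and 2.49 kb. Of 16680 such chains over all chromosomes, 59 held as many regions, this one counted, and 69.0% were a single region. It had 5 regions in all 3 libraries, and 99 chains held as many of those. By peaks, 56 chains held as many in normoxia, 66 in hypoxia 1 and 257 in hypoxia 2. Chaining was chosen after the peaks had been seen; chaining within 5 kb left 14 regions in the cluster and chaining within 20 kb made it 19.

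The best-ranked region of the whole interval lay in this cluster (128227212 to 128228032, 821 bp). It was 1 peak in each library, at percentile 99.8 in normoxia, 99.8 in hypoxia 1 and 98.1 in hypoxia 2. By the lowest of its 3 percentiles it ranked 143 of the 9295 regions found in all 3 libraries over all chromosomes, ahead of the broad MYC region at 690.

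The 4 other regions of the cluster found in all 3 libraries stood close by. The region of 678 bp (128222430 to 128223107) reached percentiles 94.4, 97.9 and 91.6 in normoxia, hypoxia 1 and hypoxia 2. The region of 931 bp (128230971 to 128231901) reached 98.6, 98.0 and 91.1. Both were in the top quintile of every list. A region of 696 bp (128237234 to 128237929) reached 93.1, 95.2 and 75.8, and the widest, 1268 bp (128234728 to 128235995), reached 94.0, 97.5 and 28.4. Hypoxia 2 gave the lowest percentile of each of these 4, and normoxia stayed within 4 percentile points of hypoxia 1.

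**Figure D4:**
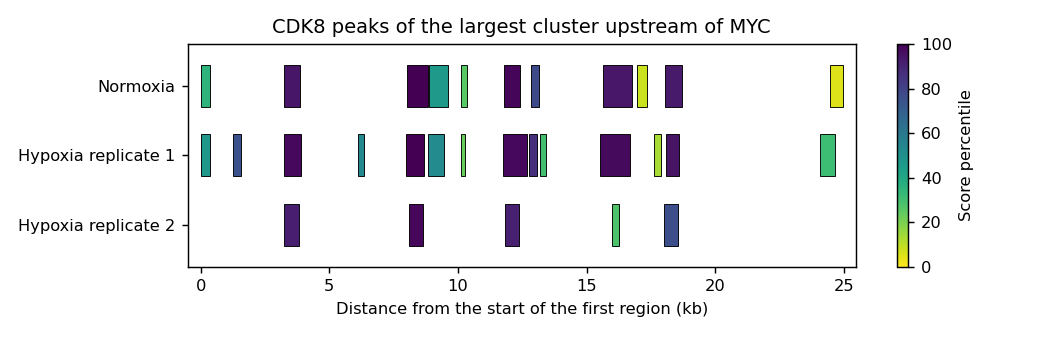
Boxes are the CDK8 peaks of the 25.0 kb cluster beside the enhancer position at 128220 kb, to scale in kb from its start and coloured by score percentile. Hypoxia 2 shows 5 boxes, each under a box of both other libraries, and lacks the others.

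At the enhancer position of 128220 kb itself, the nearest peak was 0.440 kb away in normoxia (percentile 35.3), 0.427 kb in hypoxia 1 (percentile 46.8) and 2.47 kb in hypoxia 2 (percentile 91.6). The nearest peaks of normoxia and hypoxia 1 overlapped each other (128219213 to 128219573). The enhancer position is given in whole kb, so their distances from it are not exact. Within 10 kb on either side there were 5, 7 and 2 peaks. The best of them was the region at 128227212 in all 3 libraries.

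The second enhancer position, 128413 kb, had low-ranked peaks in normoxia and hypoxia 1. It is the site of a much studied colorectal enhancer bound by TCF7L2. At this position, which is given in whole kb, lay a region of 362 bp (128413048 to 128413409). Normoxia and hypoxia 1 each listed a peak in it, at percentiles 24.6 and 14.2. Hypoxia 2 listed no peak there. Its nearest was 5.73 kb away (128418733 to 128418980), at percentile 20.4, in a region that normoxia and hypoxia 1 also listed, at 45.2 and 67.6. A peak with so low a rank may fall just under the threshold in another library, so its absence from hypoxia 2 is not a loss that these lists could show.

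Between this site and MYC lay the widest stretch without peaks. It measured 259 kb in normoxia, from 128421257 to 128680668, and 262 kb in hypoxia 2, from 128418980 to 128680627. In hypoxia 1 the widest gap was 218 kb, since that library listed a peak of 225 bp (128637389 to 128637613) at percentile 2.33. The region that ended the gap (128680627 to 128681437, 811 bp) was in all 3 libraries, at percentiles 77.6, 85.2 and 88.3. Of the 13 upstream regions in all 3 libraries, this one had its highest percentile in hypoxia 2.

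The PVT1 side was the sparsest segment in normoxia and hypoxia 1, though not in hypoxia 2, with 9 peaks in normoxia, 12 in hypoxia 1 and 10 in hypoxia 2. These came to 21.1, 28.2 and 23.5 per Mb, above the rest of chromosome 8 in each library. Peaks covered 3.88, 3.42 and 3.77 kb, so the longest covered length went with the smallest count. The best region in all 3 libraries (128866169 to 128867029, 861 bp) reached percentiles 92.6 in normoxia, 86.7 in hypoxia 1 and 92.5 in hypoxia 2.

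Another at 129140017 to 129140414 (398 bp) gave nearly the same percentile in each library, 82.1, 82.9 and 81.2. A region of 418 bp (129089037 to 129089454) reached 74.1, 76.4 and 61.4, and one of 396 bp (128923559 to 128923954) reached 58.6, 61.2 and 62.1. The region of 491 bp at 128843693 to 128844183 varied more, at 55.1 in normoxia, 94.2 in hypoxia 1 and 81.3 in hypoxia 2. In 4 of these 5 regions normoxia lay within 3 percentile points of the nearer hypoxia library, and in the last one below both.

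The region nearest to MYC on this side (128806495 to 128806978, 484 bp) is named after its values were seen. It reached percentile 90.8 in normoxia and 79.7 in hypoxia 2, and hypoxia 1, the longest list, held no peak in it. It was the only region of the interval in normoxia and hypoxia 2 alone.

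How the 52 regions were spread over the libraries was then set against all 28150 regions. In the interval 23 regions were in all 3 libraries (44.2%, 31.6 to 57.7), against 33.0% of all regions. A further 12 were in normoxia and hypoxia 1 (23.1%, 13.7 to 36.1; 15.9% of all) and 1 in normoxia and hypoxia 2 (1.92%; 6.65% of all). Hypoxia 1 alone had 11 (21.2%, 12.2 to 34.0; 22.6% of all) and hypoxia 2 alone had 1 (5.46% of all). The background lies inside the intervals for the first pattern, so the interval's share in all 3 libraries does not stand apart by counting error. Requiring peaks that overlap by 50% of both left 15 of the 23.

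These lists can show gained binding only as regions that hypoxia 1 and hypoxia 2 share and normoxia lacks. A change in the amount of CDK8 at a site listed in all 3 libraries would not appear. The pattern also needs a peak in hypoxia 2, the shortest list, which held 67.6% of all regions shared by normoxia and hypoxia 1. The interval had 1 region of this pattern (1.92%, 0.340 to 10.1), against 3.18% of all regions. It lay on the PVT1 side (128872126 to 128872443, 318 bp), at percentiles 12.1 in hypoxia 1 and 38.6 in hypoxia 2. The count needs the pair: without hypoxia 1 it was 2, and without hypoxia 2 it was 12. At MYC itself and upstream there was none, which allows a share of up to 8.82% of the 34 upstream regions (3 counts of 34; the Wilson upper limit is 10.2%). With 4 regions at MYC no useful limit can be given.

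In the same way, these lists can show lost binding only as regions in normoxia alone. There were 3 (5.77%, 1.98 to 15.6), against 13.2% of all regions, and all 3 were upstream. They lay at 128421032 to 128421257, 128306348 to 128306608 and 128236163 to 128236579, at percentiles 16.2, 12.6 and 7.92. All 3 thus stood in the bottom quintile of the normoxia list. Without hypoxia 1 the count was 15, and with the better-scoring 50% of each list it was 0.

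Of the regions of hypoxia 1 alone, the 3 best were also upstream. They lay at 128220455 to 128220777, 128352392 to 128352624 and 128225315 to 128225569, at percentiles 75.3, 63.5 and 53.0. The lowest of the 11 stood at percentile 2.33. Of the 11 regions, 4 were narrower than 225 bp, the shortest peak the other lists hold, against 45.9% of all 6370 regions of hypoxia 1 alone; the part of peak width in their listing was not tested. The single region of hypoxia 2 alone (128920138 to 128920405) was on the PVT1 side, at percentile 46.6.

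Counted by library, normoxia had a peak in 39 of the 52 regions (75.0%, 61.8 to 84.8; 68.7% of all regions). Hypoxia 1 had one in 47 (90.4%, 79.4 to 95.8; 74.7% of all) and hypoxia 2 in 26 (50.0%, 36.9 to 63.1; 48.3% of all). By this count, hypoxia 1 was the library whose interval lay above its background. The intervals treat regions as independent, though 15 of the 52 lay in 1 chain, and which library stands out depends on the count used.

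By peaks, 24 of 40 normoxia peaks were found in both other lists (60.0%, 44.6 to 73.7), against 47.7% of the whole list. The counts were 25 of 49 for hypoxia 1 (51.0%, 37.5 to 64.4; 44.3% of its list) and 26 of 29 for hypoxia 2 (89.7%, 73.6 to 96.4; 67.9% of its list). Here the interval of hypoxia 2 lay above its background, and those of normoxia and hypoxia 1 did not. In neither other list were 3 normoxia peaks (7.50%, 2.58 to 19.9; 18.7% of its list), 11 of hypoxia 1 (22.4%; 29.0% of its list) and 1 of hypoxia 2 (3.45%; 10.8% of its list). Nearly all that hypoxia 2 listed in the interval was therefore also listed by the other 2 libraries.

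**Figure D5:**
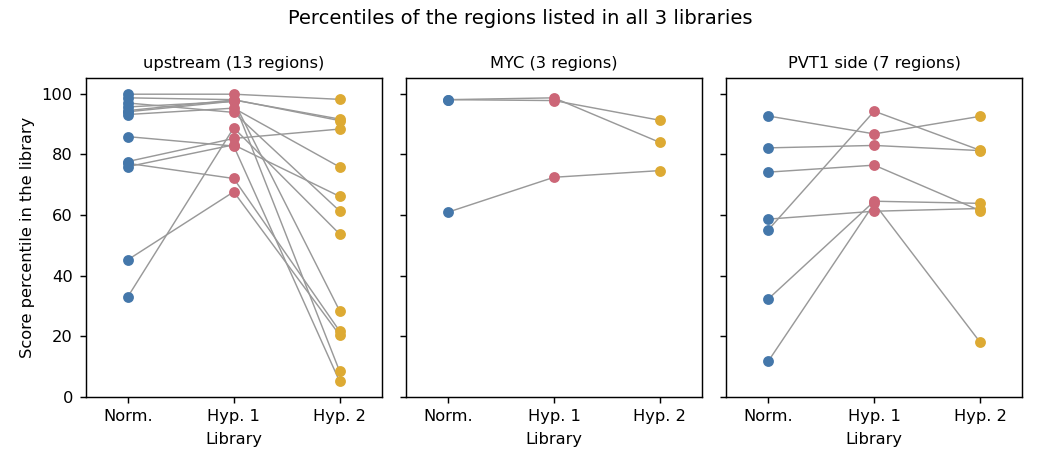
Each line joins the score percentiles of 1 region in normoxia, hypoxia 1 and hypoxia 2, for the regions found in all 3 libraries, by segment. Upstream lines drop towards hypoxia 2, where 12 of 13 lie below hypoxia 1. The median drop from hypoxia 1 to hypoxia 2 is smaller at MYC and on the PVT1 side. On the PVT1 side, hypoxia 2 lies below normoxia in only 3 of 7 regions.

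Percentiles of the regions found in all 3 libraries varied between libraries and segments. Over the 13 upstream regions the median percentile was 93.1 in normoxia, 93.8 in hypoxia 1 and 61.3 in hypoxia 2. On the PVT1 side the 7 regions had medians of 58.6, 76.4 and 63.8. Over all 9295 such regions of the genome the medians were 71.5, 71.1 and 61.5. Of the 23 regions in the interval, 19 (82.6%) had a lower percentile in hypoxia 2 than in hypoxia 1, against 60.7% of all 9295. Hypoxia 1 was lower than normoxia in 7 of the 23 (30.4%), against 48.3% of all 9295, and the difference of hypoxia 1 from normoxia ran from -5.9 to 55.7 percentile points. In the upstream segment, the medians of the hypoxia libraries lay farther apart than those of normoxia and hypoxia 1.

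Joining puts touching or overlapping peaks in 1 region, so short distances between their centres are partly fixed by it. In 21 regions each library had a single peak, and the distance between peak centres had a median of 50.5 bp for the 2 hypoxia libraries, 65.0 bp for normoxia and hypoxia 1 and 44.5 bp for normoxia and hypoxia 2. The largest distance was 204 bp. Over the 8077 such regions of the genome the medians were 44.5, 41.5 and 39.5 bp, smaller than in the interval for each pair. The median width was 623 bp in normoxia, 512 bp in hypoxia 1 and 370 bp in hypoxia 2 in the interval, and 450, 365 and 382 bp over the 8077 regions, so normoxia had the widest median in both.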

How the data were processed

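Each CDK8 library has 1 deposited peak list, named as merged without saying what was merged. Column 5 holds the authors' score per peak, of unstated scale, used here only as a percentile within its list. The submitters' processing notes name MACS2 2.0.9, Bowtie 0.12.7, CASAVA 1.8.2 and FastQC and the build GRCh37/hg19, with no role or parameter. Neither the calling threshold nor the read depth is given in the sources used here. A site missing from a list may lie just under its threshold.

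Coordinates count from 1. An overlap is at least 1 bp. A region with several peaks of a library has the percentile of the best. Intervals are 95% Wilson intervals and cover counting error alone. No test was run: permuting 3 libraries gives no p below 0.333. Joining was tested on simulated lists whose separate sites never touched, so the test did not cover sites lying as close as some of the interval do. The members, segments and lists of regions to name were chosen with earlier results of these data known. Named were all MYC regions, the 5 best in all 3 libraries per other segment, up to 5 in both hypoxia libraries alone, the 3 best of each library alone and those nearest the enhancer positions. No sequence is printed. Python 3.11.15, pandas 2.3.3 and scipy 1.17.1 were used.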

Additional observations from a re-analysis of the deposited data

How the results depend on the processing

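With the better-scoring 50% of each list, 15 regions of the interval were in all 3 libraries and 0 were of normoxia alone. Another 2 were kept in hypoxia 1 and hypoxia 2 but not in normoxia. The full normoxia list holds both, at percentiles 33.0 and 32.3, so they fell under the cut and are not missing from normoxia. The upstream segment held 12, 19 and 8 peaks in normoxia, hypoxia 1 and hypoxia 2. An overlap of 50% of both peaks left 15 regions in all 3 libraries. Regions of normoxia alone numbered 1 with equal list sizes and 1 with peaks within 500 bp joined. Leaving out either hypoxia library gave 25 to 35 regions in all remaining libraries, 2 to 12 of hypoxia that normoxia lacked, and 4 to 15 of normoxia alone. With fewer peaks, a stricter rule or fewer libraries these counts move by construction; beyond that the cause was not tested. The density of the interval over the rest of chromosome 8 ran from 4.98 to 8.04 over the alternatives and libraries. With equal list sizes the upstream segment held 20, 23 and 13 peaks, so hypoxia 2 was again the lowest. No paired analysis was possible because the labels give the single normoxia library no replicate number, and 1 normoxia library could form 1 pair at most.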

Other observations

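Of the upstream regions above percentile 80 in both normoxia and hypoxia 1, 2 stood under percentile 10 in hypoxia 2. They are named after their values were seen. The region at 128342298 to 128343150 reached percentiles 95.6, 97.4 and 8.46 in normoxia, hypoxia 1 and hypoxia 2, and listed widths of 848, 828 and 370 bp. The region at 128277760 to 128278491 reached 85.8, 82.7 and 5.10. Of the 8 upstream regions above percentile 80 in both normoxia and hypoxia 1, 3 were under percentile 30 in hypoxia 2. Over all chromosomes 9.77% of 2529 such regions were under 30 or absent there. With the roles turned, 0.226% of 1770 regions above 80 in both hypoxia libraries were under 30 or absent in normoxia, and 0 of the 9 in the interval. For regions above 80 in normoxia and hypoxia 2, 4.92% of 2073 were under 30 or absent in hypoxia 1, and 0 of the 7 in the interval.

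Of the 24 upstream regions shared by normoxia and hypoxia 1, hypoxia 2 listed 13 (54.2%, 35.1 to 72.1), against 67.6% over all chromosomes. It listed all 3 such regions at MYC and 7 of 8 on the PVT1 side. The intervals are wide, and the difference between segments was not tested.

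Some regions ranked low in normoxia and higher in hypoxia 1; they are named after their values were seen. In each of those named here that hypoxia 2 listed, its percentile was higher than in normoxia too. Choosing regions for a low normoxia percentile favours such a difference, so it is no separate support. Over the 23 regions of the interval in all 3 libraries, 16 had a lower percentile in hypoxia 2 than in normoxia. The region at 128344182 to 128344628 reached 33.0 in normoxia, 88.7 in hypoxia 1 and 53.7 in hypoxia 2. The region at 129179881 to 129180336 reached 32.3, 64.5 and 63.8. The region at 128050924 to 128051210, the lowest of the interval by position, reached 26.9 and 78.9, and was not listed in hypoxia 2. The region at 129188862 to 129189476 reached 11.8 in normoxia, 63.8 in hypoxia 1 and 18.0 in hypoxia 2, so the hypoxia libraries differed from each other by nearly as much.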
